A study of Homo sapiens with 4 samples.

Results

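The levels of 9 genes of naive pluripotency, KLF4, KLF5, KLF17, TFCP2L1, DPPA3, DPPA5, SUSD2, TFAP2C and ESRRB, were examined in nuclei of H9, a human embryonic stem cell line that the labels describe as primed. The genes were given as a list of symbols, by a rule that uses no measured value, though with earlier results of these data known. All 9 were present among the 33640 gene symbols in the files. RNA was measured in 4 bulk libraries, 1 per condition. In the 2 Pre libraries, reverse transcription (RT) of poly(A) RNA preceded tagmentation by the Tn5 enzyme, and in the 2 Post libraries it followed tagmentation. Within each order, one library had RNA profiled alone (RNA only) and the other had the histone marks H3K27me3 and H3K27ac profiled as well (RNA and DNA). What the RNA only libraries received in place of antibody complexes is not given in the sources used here. All 4 conditions shared the same line, grown in Essential8 medium on Geltrex, nuclei fixed with formaldehyde and bound to concanavalin A beads, and an oligo(dT) primer for RT. The design thus addressed whether the order of RT and tagmentation, and profiling of chromatin beside RNA, altered the transcriptome.

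Human pluripotent stem cells are held in culture in states that resemble different stages of the embryo. Naive cells resemble the epiblast before implantation and express KLF4, KLF5, KLF17, TFCP2L1, DPPA3, DPPA5 and the surface protein SUSD2, whereas primed cells, such as H9 in standard medium, resemble the epiblast after implantation and express genes such as ZIC2, OTX2 and DUSP6. POU5F1 and SOX2 are expressed in both states. ESRRB is a central gene of the naive network of the mouse, and its expression in human naive cells is known to be low.

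The promoters of these genes differ in their content of CpG, the dinucleotide that is methylated in vertebrate DNA and that is depleted outside CpG islands. RefSeq promoter windows (GRCh38.p14, 250 bases before to 50 after the start of transcription, 300 in all) were matched by symbol for 7 of the 9 genes, with 10 windows between them. The 150 bases before the start are shown for the 2 genes whose windows held the most and the next to most CpG among those with a single start, and for the 2 genes with the highest level per kilobase of exon, which are described further on. They are written from 5′ to 3′ on the strand of the gene in GRCh38 coordinates, with each CpG in capitals.
TFCP2L1 (chr2:121285203-121285352, minus strand): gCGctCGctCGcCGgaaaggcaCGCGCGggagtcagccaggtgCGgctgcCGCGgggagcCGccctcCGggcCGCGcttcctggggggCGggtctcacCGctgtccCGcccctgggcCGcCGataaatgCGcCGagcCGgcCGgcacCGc
KLF4 (chr9:107489770-107489919, minus strand): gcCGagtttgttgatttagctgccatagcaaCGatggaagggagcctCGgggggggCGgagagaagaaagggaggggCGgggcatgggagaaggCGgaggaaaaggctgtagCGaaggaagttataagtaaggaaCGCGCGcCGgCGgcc
DPPA3 (chr12:7711283-7711432, plus strand): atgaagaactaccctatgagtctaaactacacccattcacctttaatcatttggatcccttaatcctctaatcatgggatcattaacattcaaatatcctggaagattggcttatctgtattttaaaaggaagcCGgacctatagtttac
ESRRB (chr14:76310627-76310776, plus strand): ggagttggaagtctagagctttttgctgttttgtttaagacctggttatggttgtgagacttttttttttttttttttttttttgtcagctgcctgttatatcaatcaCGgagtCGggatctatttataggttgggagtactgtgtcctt

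The whole TFCP2L1 window held 43 CpG, more than 95.02% of the 35116 RefSeq promoter windows, and that of KLF4 held 33, more than 82.8%. The windows of DPPA3 and of the 3 starts of ESRRB held 6, 5, 4 and 8 CpG, all below the median of 14 over all promoters. All windows of the 2 genes with the highest level per kilobase of exon were thus CpG-poor. So was 1 start of KLF5, a gene of lower level, with 4 CpG. The other start of KLF5 had 37, KLF17 had 18 and DPPA5 had 20. Per kilobase of span, KLF17 took place 2 and ESRRB place 4, so the CpG-poor pair is that of the exon scale alone. No window was found under the symbols SUSD2 and TFAP2C. No methylation was measured in these libraries, and the CpG counts are given as a description of the sequences.

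Total counts were 9379073 (Pre, RNA only), 8960724 (Pre, RNA and DNA), 6368721 (Post, RNA only) and 10089552 (Post, RNA and DNA). A single count thus stood for 0.107, 0.112, 0.157 and 0.0991 RPM, the count divided by the library total and scaled to 1000000 counts. Protein-coding genes together held 752600, 767300, 554900 and 716100 RPM in the same order, and the Post, RNA only library thus stood apart by both its depth and its protein-coding share. Among 11564 genes averaging 10 RPM or more, Post over Pre had a median log2 ratio of −0.44 without chromatin profiling and −0.09 with it, and that of RNA and DNA over RNA only was 0.03 before and 0.38 after tagmentation. Ratios of single genes are therefore also given relative to these medians. In bulk libraries, RNA in fewer cells and less RNA in each cell cannot be told apart. As each condition was 1 library, no single comparison had replicates and the ratios are given without a test, while models that join both pairs, with 1 residual degree of freedom, are among the alternatives. The 95% intervals given for counts and ratios are exact and cover counting error only.

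The naive genes were at low levels in all 4 libraries. Together they received 971 of 34798070 counts, and 565 of these, or 58.2%, belonged to ESRRB. ESRRB alone averaged over 10 RPM, the level used here to call differences in single genes. TFCP2L1, DPPA3 and KLF17 were between 1 and 10 RPM, and KLF5, SUSD2, TFAP2C, KLF4 and DPPA5 were below 1 RPM on average. As this scale is not corrected for gene length, the order between genes is given per kilobase below.

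**Figure D1:**
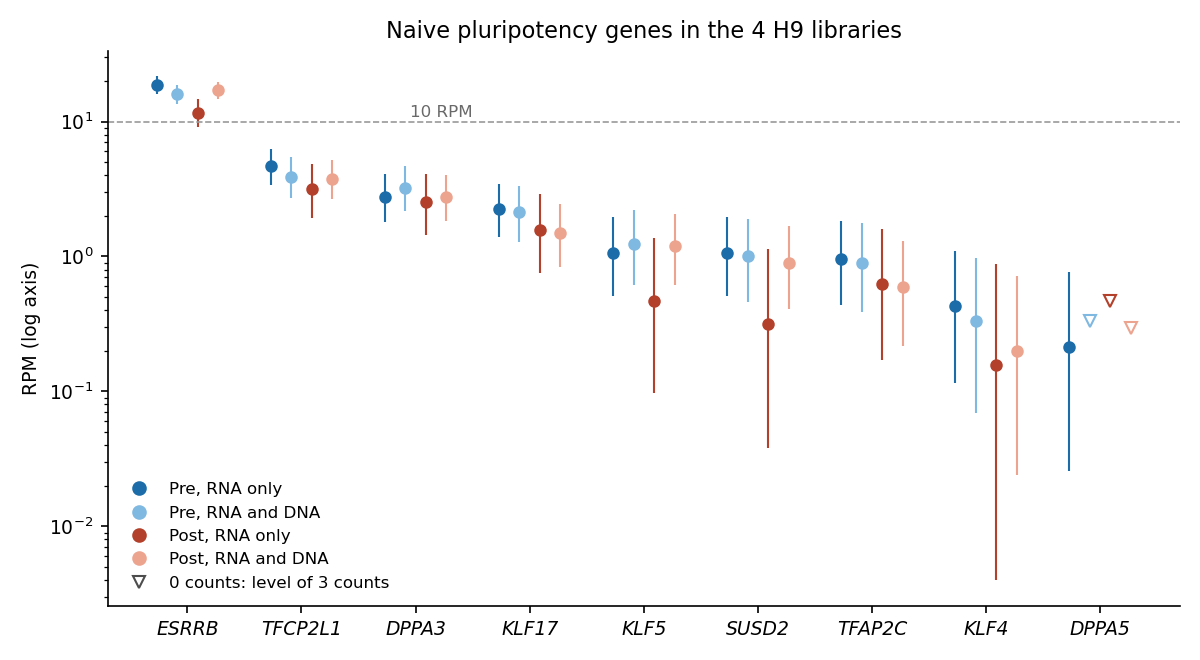
RPM (log axis) of each of the 9 naive pluripotency genes in the 4 libraries, 1 point per library, with exact 95% Poisson intervals. Open triangles mark libraries with 0 counts at the RPM that 3 counts would give. ESRRB lay above 10 RPM in all 4 libraries and the other 8 genes below it in all 4, and DPPA5 had counts in the Pre, RNA only library alone.

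ESRRB encodes an orphan nuclear receptor that binds DNA at oestrogen-related response elements. It lies on the plus strand of chromosome 14 from 76310712 to 76501837 (GRCh38, GENCODE 44). Its counts were 176 (Pre, RNA only), 143 (Pre, RNA and DNA), 74 (Post, RNA only) and 172 (Post, RNA and DNA), which is 18.8, 16.0, 11.6 and 17.1 RPM. The Post, RNA only library was the lowest, and its interval of 9.12 to 14.6 RPM overlapped that of Pre, RNA and DNA, 13.5 to 18.8 RPM, but not that of Pre, RNA only, 16.1 to 21.8 RPM. Exons make up 3.10% of the 191.1 kb that the gene spans. As the counts were deposited per gene, reads from introns cannot be separated from those of spliced mRNA here.

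Among the other transcription factors, TFCP2L1, a grainyhead-like factor of the naive network, had 44, 35, 20 and 38 counts in the same order of libraries, or 4.69, 3.91, 3.14 and 3.77 RPM. KLF17, a zinc finger factor of human naive cells and of the early embryo, had 21, 19, 10 and 15 counts, or 2.24, 2.12, 1.57 and 1.49 RPM. For both genes the intervals of all 4 libraries overlapped one another, with that of TFCP2L1 reaching from 1.92 to 6.30 RPM and that of KLF17 from 0.753 to 3.42 RPM between the lowest and the highest bound. TFCP2L1 spans 68.6 kb of chromosome 2 from 121216587 to 121285202 on the minus strand, and KLF17 spans 16.3 kb of chromosome 1 from 44118821 to 44135140 on the plus strand.

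KLF4, one of the factors used for reprogramming, KLF5, a related factor also found in epithelia, and TFAP2C, an AP-2 factor needed for human naive cells and active in trophoblast and germ cells, were measured by few reads. KLF5 had 10, 11, 3 and 12 counts (1.07, 1.23, 0.471 and 1.19 RPM). TFAP2C had 9, 8, 4 and 6 counts (0.960, 0.893, 0.628 and 0.595 RPM). KLF4 had 4, 3, 1 and 2 counts (0.427, 0.335, 0.157 and 0.198 RPM). The Post, RNA only library, the shallowest, held the fewest counts of each of the 3 genes, and within each gene the intervals of all libraries overlapped. Pooled over the libraries, KLF4 was at 0.287 RPM, with an interval of 0.138 to 0.529 RPM. KLF4 lies on chromosome 9 from 107484852 to 107490482 (minus strand), KLF5 on chromosome 13 from 73054976 to 73077541 (plus strand) and TFAP2C on chromosome 20 from 56629306 to 56639283 (plus strand).

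DPPA3, a maternal factor of the early embryo, had 26, 29, 16 and 28 counts, which is 2.77, 3.24, 2.51 and 2.78 RPM. It was the most even of the 4 genes above 1 RPM, with the highest library 1.29 times the lowest, against 1.49 for TFCP2L1, 1.51 for KLF17 and 1.62 for ESRRB. DPPA5, a KH domain protein used as a marker of naive cells, had 2 counts in Pre, RNA only (0.213 RPM, interval 0.0258 to 0.770 RPM) and 0 in the other libraries. A count of 0 allows up to 0.335, 0.471 and 0.297 RPM in these 3 libraries, each the level of 3 counts, so its presence in 1 library was not a detectable difference at this depth. SUSD2, a membrane protein used to sort naive cells, had 10, 9, 2 and 9 counts, or 1.07, 1.00, 0.314 and 0.892 RPM, and the low library was again Post, RNA only. DPPA3 lies on chromosome 12 from 7711433 to 7717559 (plus strand), DPPA5 on chromosome 6 from 73353063 to 73354276 (minus strand) and SUSD2 on chromosome 22 from 24181487 to 24189106 (plus strand).

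Per kilobase of exon, the members fell into 3 steps by their ranges over the libraries, which are not counting intervals. ESRRB and DPPA3 formed the first, with means over the libraries of 2.67 RPM per exon kb (range 1.96 to 3.16) and 2.57 (2.28 to 2.94), and they did not differ beyond the range of the libraries. KLF17, at 0.587 (0.471 to 0.709), and TFCP2L1, at 0.414 (0.335 to 0.501), formed the second, and the range of KLF17 did not reach that of DPPA3. The third began with KLF5, at 0.269 (0.128 to 0.334), just below TFCP2L1. It also held TFAP2C at 0.256, SUSD2 at 0.162, DPPA5 at 0.0809 and KLF4 at 0.0762, each overlapping its neighbour in this order. The cut between the second and the third step rests on 0.334 for KLF5 (11 counts) against 0.335 for TFCP2L1 (20 counts). So small a gap is within counting error, and these 2 genes are not ordered by it. Of all 9 genes, ESRRB and DPPA3 alone exceeded the median of the 18080 protein-coding genes with a count, 2.47 RPM per exon kb, and were above 51.7% and 50.8% of them. KLF4 was above 7.002% and DPPA5 above 7.34%.

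The length used changed this order. Across the 18080 protein-coding genes, mean RPM rose with the length of the exons (Spearman's rho 0.543) and with the span including introns (0.574), and the level per exon kb still rose with the span (0.402). These correlations are across genes of the same 4 libraries and are given as a description. Per kilobase of span, DPPA3 was first, at 0.461 RPM per kb (range 0.410 to 0.528), above 53.7% of protein-coding genes, and its range lay above those of all other members. ESRRB took place 4, at 0.0829, above 25.01% of protein-coding genes, and its range overlapped those of all other members but DPPA3 and KLF5. The remaining genes lay between 0.0438 (KLF5) and 0.114 (KLF17) RPM per kb, against a median of 0.392 for protein-coding genes. DPPA3 was thus near the middle of protein-coding genes on either scale, ESRRB on the exon scale alone, and the other 7 members were above at most 29.1% of protein-coding genes on either.

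**Figure D2:**
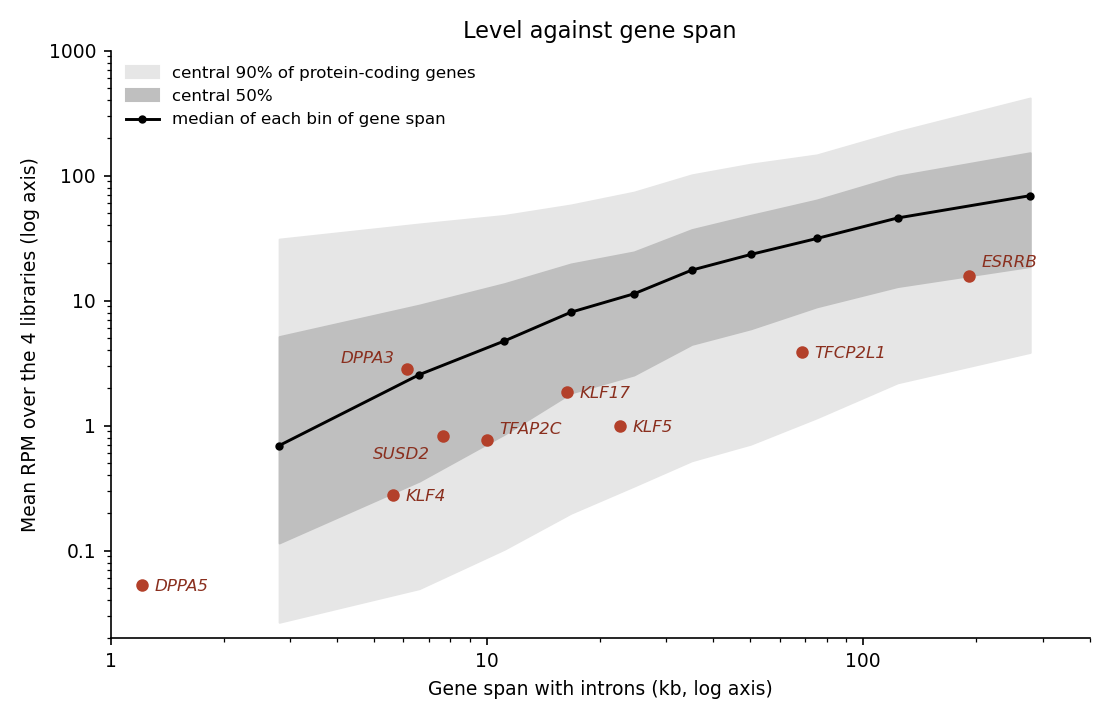
Mean RPM over the 4 libraries against gene span with introns (both log axes). The line joins the medians of 10 bins of 1808 protein-coding genes each, the bands hold the central 50% and 90% of the genes of each bin, and points are the 9 naive genes. DPPA3 lies by the median line, DPPA5 is shorter than the median span of the first bin, and the other 7 genes lie below the line.

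Set against genes of like span, the same picture held. The protein-coding genes were divided into 10 bins of 1808 genes by span. ESRRB, at a mean of 15.9 RPM, was above 22.0% of the genes of its bin, whose median was 69.2 RPM, and TFCP2L1, at 3.88 RPM, was above 14.3% of a bin with a median of 31.4 RPM. KLF5 was above 13.2%, DPPA5 above 13.6%, KLF4 above 22.5%, TFAP2C above 23.4%, KLF17 above 25.2% and SUSD2 above 35.8% of their bins. DPPA3, at 2.82 RPM, was the exception, above 51.7% of a bin whose median was 2.56 RPM.

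Genes of the primed and of the general pluripotent state were all higher than the naive genes on the exon scale. The 20 primed state genes had a median of 18.2 RPM per exon kb, and all 20 exceeded the median of protein-coding genes. No naive cells were measured, and the list was chosen with earlier results of these data known. These levels are therefore a description and not a test of the label of primed cells. All 20 were also above the highest naive gene, ESRRB. By mean RPM they were led by PTPRZ1, a receptor phosphatase, at 83.3 RPM per exon kb, FAT3, a cadherin, at 33.4, the DNA methyltransferase DNMT3B at 72.5 and the telomere protein TERF1 at 27.5. The 12 core pluripotency genes had a median of 39.2 and a lowest value of 3.95, and were led by L1TD1 (230.3), DPPA4 (62.0), LIN28A (63.8) and LIN28B (33.3). The median of the 9 naive genes was 0.269 RPM per exon kb. Per kilobase of span, 19 of 20 primed genes, 12 of 12 core genes and 1 of 9 naive genes, DPPA3, exceeded the protein-coding median, and the primed gene LEFTY1, at 0.381, was the one that lay below it and below DPPA3.

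**Figure D3:**
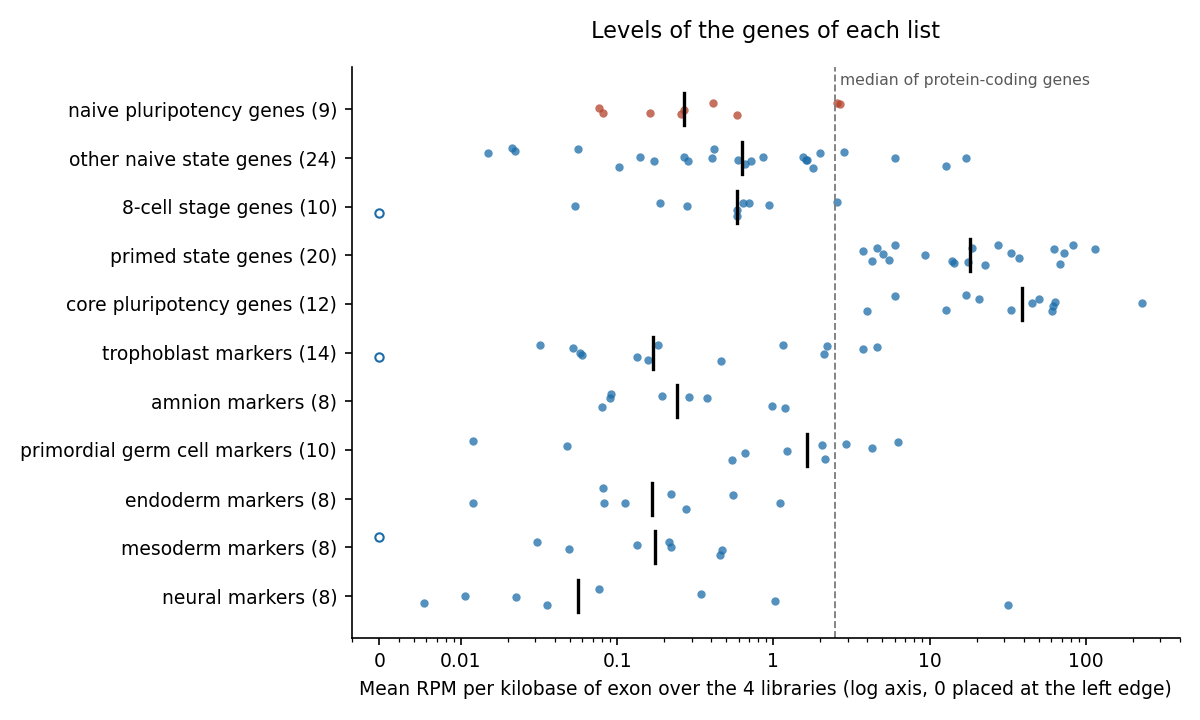
Mean RPM per kilobase of exon over the 4 libraries (log axis) of each gene of 11 lists, with the number of genes in brackets, 1 point per gene and a black bar at the median. Open circles are genes with no row in the files, drawn at 0. All 20 primed and all 12 core genes lie to the right of all 9 naive genes, whose median of 0.269 lies among those of the lineage lists.

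A wider list of 24 genes linked with the naive state, which shared no gene with the 9, had a median of 0.629 RPM per exon kb, and 4 of its genes exceeded the protein-coding median. Of these, PRDM14 (17.2 RPM per exon kb), ZFP42 (12.7) and NANOG (6.03) are also on the core list, as pluripotency factors of both states, and the other one, OOEP, an oocyte protein, was at 2.83. CPT1A, an acyltransferase of the outer mitochondrial membrane and place 4 of the list by mean RPM, was at 1.55. With CPT1A, 20 genes of the list lay below the protein-coding median, between 0.0149 (TBX3) and 1.98 (DPPA2) RPM per exon kb. The 10 genes of the 8-cell stage, of which DPPA3 and KLF17 are also members, had a median of 0.585, and the other leading genes by mean RPM were TPRX1 at 0.642 and ZSCAN4 at 0.584.

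Markers of other lineages were measured beside the naive genes. Some of them, such as NES, PDPN and TEAD3, exceeded the protein-coding median. The medians were 0.0559 RPM per exon kb for 8 neural, 0.167 for 8 endoderm, 0.170 for 14 trophoblast, 0.175 for 8 mesoderm, 0.241 for 8 amnion and 1.64 for 10 primordial germ cell markers, so that the naive median of 0.269 lay between amnion and germ cell markers. TFAP2C is shared with trophoblast and germ cells, and DPPA3 and TFCP2L1 with germ cells. By mean RPM, the germ cell list was led by PDPN (6.30 RPM per exon kb), DAZL (4.31), KIT (1.22) and SOX15 (2.93). Its other genes were PRDM1 (0.547), DND1 (2.06), DDX4 (0.662), NANOS3 (2.15), TFAP2A (0.0476) and SOX17 (0.0119), so that 3 of 10 exceeded the protein-coding median. The trophoblast list was led by the transporter ABCG2 (3.76), ITGA2 (2.21), ENPEP (2.10) and TEAD3 (4.58). The part of such cells in the level of any naive gene was not tested. The other lists were led by GABRP (1.19), TNC (0.377), VTCN1 (0.979) and POSTN (0.195) for amnion, FOXA2 (1.10), GATA4 (0.553) and GATA6 (0.113) for endoderm, PDGFRA (0.214), TBX6 (0.455), MIXL1 (0.471) and EOMES (0.221) for mesoderm, and NES (31.7), DCX (1.02), PAX6 (0.0761) and LHX2 (0.346) for neural cells.

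Within their gene families, the naive members were not the leading genes. The KLF family of zinc finger factors had 18 measured genes, of which KLF12 (10.2 RPM per exon kb), KLF3 (4.83), KLF7 (3.64) and KLF13 (2.64) exceeded the protein-coding median. KLF17, KLF5 and KLF4 were 11th, 13th and 16th of the 18 on this scale. TFCP2L1 was last of 6 in its family, at 0.414, below TFCP2 (18.3), GRHL2 (11.5), UBP1 (6.79), GRHL1 (0.497) and GRHL3 (0.493). TFAP2C, at 0.256, was the third of 5 AP-2 genes, behind TFAP2E (1.35) and TFAP2D (0.676) and ahead of TFAP2B (0.0758) and TFAP2A (0.0476). ESRRB, at 2.67, lay between the related receptors ESRRA (8.76) and ESRRG (1.80). Of the DPPA genes, which share a name more than a structure, DPPA4 was at 62.0, DPPA3 at 2.57, DPPA2 at 1.98 and DPPA5 at 0.0809 RPM per exon kb.

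The order of RT and tagmentation made no called difference to any naive gene. A gene was called where its log2(RPM + 1) ratio was at least 2-fold away from the median ratio of all genes and its average was 10 RPM or more, which only ESRRB could meet. Between the libraries without chromatin profiling, 0 of 9 members were called, against 1.38% of the 11564 genes that passed the filter, and between those with it 0 of 9, against 0.251%. With 1 member eligible and so small a background, these counts say little beyond ESRRB itself. A wider reading asks for how many genes averaging 1 RPM or more the counting interval of the ratio leaves out the median ratio. Of 21700 such genes, 14.1% lay above and 12.9% below the median in this way without chromatin profiling, and 13.6% and 12.4% with it. Of the 4 eligible members, ESRRB, TFCP2L1, DPPA3 and KLF17, none did so in either pair.

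For ESRRB, the Post library was 0.619 times the Pre library without chromatin profiling, with an interval of 0.465 to 0.817, and 1.07 times (0.851 to 1.34) with it. Against the median gene these ratios became 0.839 (0.631 to 1.11) and 1.14 (0.908 to 1.43), both with 1 inside the interval. The lower ESRRB level in the Post, RNA only library was thus within counting error of the shift of the median gene. For TFCP2L1 the relative ratios were 0.907 (0.506 to 1.57) and 1.03 (0.633 to 1.68), for DPPA3 1.23 (0.615 to 2.38) and 0.915 (0.525 to 1.59), and for KLF17 0.950 (0.3995 to 2.11) and 0.748 (0.354 to 1.55). A 2-fold change lay outside the intervals of ESRRB and TFCP2L1 in both pairs, and inside that of DPPA3 without chromatin profiling and those of KLF17 in both.

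The members below 1 RPM bounded little. SUSD2 had 2 counts in Post, RNA only against 10 in Pre, RNA only, a relative ratio of 0.399 with an interval of 0.0425 to 1.87, and 9 against 9 in the libraries with chromatin profiling, a relative ratio of 0.948 (0.333 to 2.695). KLF5 had 0.599 (0.106 to 2.33) in the first pair and 1.03 (0.418 to 2.59) in the other. TFAP2C had 0.887 (0.200 to 3.18) and 0.711 (0.203 to 2.34), and KLF4 0.499 (0.0101 to 5.04) and 0.632 (0.0528 to 5.52). DPPA5, with 0 counts against 2 in the first pair and none in the other, allowed a relative ratio of up to 10.6 in the first and gave no ratio in the second. A 2-fold change of any of these 5 genes was not detectable at this depth.

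**Figure D4:**
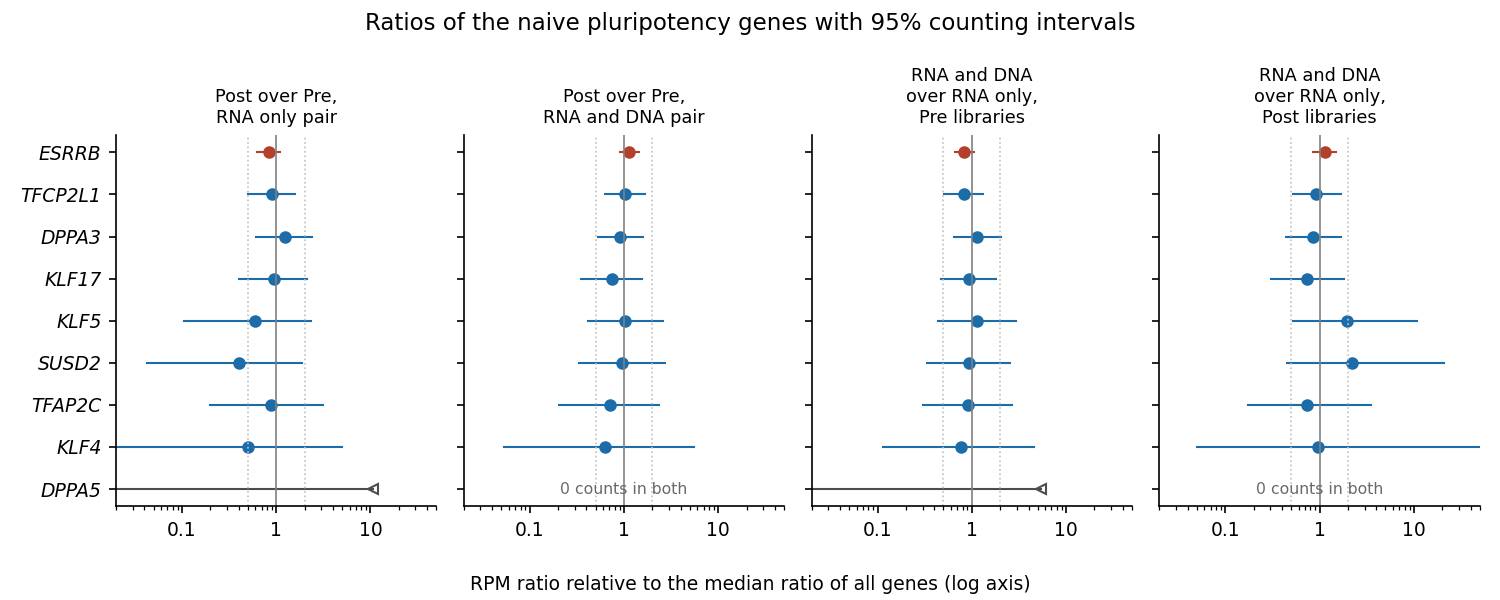
RPM ratio of each naive gene relative to the median ratio of all genes (log axis) in the 4 comparisons, with exact 95% counting intervals. ESRRB, the one gene averaging 10 RPM or more, is in red, dotted lines mark 2-fold, and intervals that leave the axis are cut at its ends. An open triangle is the upper bound where the numerator had 0 counts. The interval of every drawn ratio includes 1.

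Profiling chromatin beside RNA gave the same count. Before tagmentation, 0 of 9 members were called in RNA and DNA over RNA only, against 0.0173% of the 11564 genes averaging 10 RPM or more, and after tagmentation 0 of 9, against 2.36%. ESRRB was again the one member among these genes. By the counting interval, 5.37% of the genes averaging 1 RPM or more lay above the median and 5.14% below it in the Pre libraries, and 12.8% and 14.4% in the Post libraries. None of the 4 eligible members did so in either. For ESRRB the relative ratios were 0.836 (0.666 to 1.05) before and 1.13 (0.855 to 1.504) after tagmentation. Each library served in 1 comparison of either kind, so the values of these 2 comparisons are not independent of those for the order of RT.

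TFCP2L1 had relative ratios of 0.818 (0.510 to 1.31) and 0.923 (0.524 to 1.67) for the profiling of chromatin, DPPA3 1.15 (0.652 to 2.03) and 0.850 (0.444 to 1.68), and KLF17 0.931 (0.473 to 1.82) and 0.729 (0.306 to 1.81). SUSD2 and KLF5 gave the largest relative ratios of the 4 comparisons, 2.19 (0.453 to 20.8) and 1.94 (0.524 to 10.7), both in the Post libraries and both over 2 or 3 counts in Post, RNA only. In the Pre libraries the same genes had 0.926 (0.333 to 2.54) and 1.13 (0.436 to 2.97). TFAP2C had 0.914 (0.307 to 2.67) and 0.729 (0.173 to 3.51), KLF4 had 0.771 (0.113 to 4.56) and 0.972 (0.0506 to 57.3), and DPPA5 could be bounded in the Pre libraries alone, at up to 5.48.

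Summed over the 9 genes, which lowers the counting error, the naive genes held 32.2 RPM (interval 28.7 to 36.0) and 28.7 RPM (25.3 to 32.4) in the Pre libraries without and with chromatin profiling. They held 20.4 RPM (17.1 to 24.2) and 28.0 RPM (24.8 to 31.4) in the Post libraries without and with it. The Post, RNA only library was the low one and its interval did not overlap those of the other 3 libraries. Against the median gene, the sum of Post over Pre was 0.859 (0.694 to 1.06) without and 1.04 (0.875 to 1.24) with chromatin profiling, and that of RNA and DNA over RNA only was 0.875 (0.738 to 1.04) in the Pre and 1.05 (0.853 to 1.31) in the Post libraries. As ESRRB gave between 55.6% and 61.0% of the sum in each library, the other 8 genes were also summed, with relative ratios of 0.887 (0.635 to 1.22), 0.915 (0.697 to 1.20), 0.931 (0.716 to 1.21) and 0.954 (0.686 to 1.34) in the same order. All 8 intervals included 1.

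On the log2(RPM + 1) scale, the relative ratios of the 9 genes lay between −0.22 and 0.34 for Post over Pre without chromatin profiling, with a median of 0.10 against 0.08 over the 21700 genes averaging 1 RPM or more. With chromatin profiling they lay between −0.23 and 0.18, with a median of 0.01 against 0.04. For RNA and DNA over RNA only they lay between −0.30 and 0.14, with a median of −0.08 against −0.01, in the Pre libraries, and between −0.43 and 0.20, with a median of −0.27 against −0.04, in the Post libraries. The pseudocount of 1 RPM pulls the ratio of a gene with few counts towards 0, and the subtraction of the median then moves it to the other side, as for DPPA5, which took −0.38 in the Post libraries with 0 counts in both. For the members below 1 RPM these values therefore describe the scale more than the genes, and the ratios of counts given above are the measurement. None of the 24 other naive, 20 primed and 12 core genes was called in any of the 4 comparisons either. Of these lists, 4, 19 and 12 genes averaged 10 RPM or more and could be called, with PRDM14, ZFP42 and NANOG counted in both the first and the last. Over all 11564 such genes the share called was between 0.0173% and 2.36%, so these counts say little about the lists.

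The profile of ESRRB over the 4 libraries was shared by many genes. Among 11563 other genes averaging 10 RPM or more, those with the smallest root mean square distance from the centred log2 profile of ESRRB were NOTCH2NLC (0.0056), BASP1-AS1 (0.0073) and RASA3 (0.0075). NOTCH2NLC, for example, was at 24.2, 20.4, 15.1 and 22.0 RPM in the same order of libraries, low in Post, RNA only as was ESRRB. A distance under 0.1 was found for 2052 genes, or 17.8%. The profile of ESRRB was thus not particular to it, and no other member passed the filter for this comparison.

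KLF4, KLF17 and ESRRB each overlap 1 annotated gene on the opposite strand in GENCODE 44, none of which had a row in the files under its identifier. Whether the counting used the strand is not given in the sources used here, so reads of these partners cannot be told apart from those of the members. GENCODE also lists 11 pseudogenes named after DPPA3, 3 after DPPA5 and 1 each after KLF4, KLF17 and SUSD2. None of these symbols had a row in the files, and the low counts of DPPA3 and DPPA5 are thus uncertain as to reads that match such copies. The study's methods, written for its single-cell data, describe keeping only reads with a unique place in the genome. Whether reads of DPPA3 and DPPA5 were lost in this way was not tested.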

How the data were processed

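The deposited values are counts of reads per gene symbol, which the authors made from 4 bulk RNA libraries of H9 nuclei. The submitters' processing notes name the build GRCh38 and, as tools, STAR 2.7.11b, Bowtie2 2.5.3, Bowtie 1.3.1, SAMtools and Trim Galore 0.6.10. The study's methods, written for its single-cell data, describe removal of duplicates by mapping position and molecular identifier. The annotation is not given in the sources used here. Conditions were read from the labels and the legend that numbers the RT primers, and 60 further barcode columns were not used. Duplicate removal limits amplification bias, but low counts remain noisy. No normalization had been applied.

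Counts were divided by library totals (9379073, 8960724, 6368721 and 10089552) to give RPM. Ratios used log2(RPM + 1) minus the median over genes averaging 10 RPM or more, and a call required a 2-fold difference. Intervals (95%) are exact Poisson intervals for counts and exact conditional binomial intervals for ratios, and cover counting error only. Exon and span lengths were taken from GENCODE 44, in which all 9 symbols matched 1 gene, and promoters from RefSeq. ALPPL2 was read under its current symbol, ALPG. The calling steps were tested on simulated data.

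The members and the 15 other gene lists were chosen with earlier results of these data known. The genes named are the 9 members, the 3 nearest profiles to each member above 10 RPM, the 4 genes of highest mean RPM of each other list, overlapping genes and pseudogenes. LEFTY1, OOEP, TBX3, GRHL3, PRDM1, DND1, DDX4, NANOS3, TFAP2A and SOX17 were named after their values were seen. Single values of some list genes are not reported here. Alternatives were TMM sizes (edgeR 4.0.16), median-of-ratios factors (DESeq2 1.42.0), totals without the 20 most abundant genes, pseudocounts of 0.1 and 5 RPM, filters of 1 RPM or none, thinned counts, no centring, span lengths, and additive models of both factors in edgeR and DESeq2 (R 4.3.3), which leave 1 residual degree of freedom.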

Additional observations from a re-analysis of the deposited data

How the results depend on the processing

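No naive gene was called in any of the 4 comparisons under any of the alternative scalings, pseudocounts, filters, thinning or centring, and ESRRB alone averaged 10 RPM or more under the other scalings and thinning. Where the filter of 10 RPM was kept, ESRRB alone could thus be called. The lower filters were run with the pseudocount of 1 RPM, which pulls ratios of few counts towards no change. The absence of calls therefore says little about the members below 1 RPM. Ordering by span in place of exon length left 1 of the 9 genes, DPPA5, at its place. Of 36 relative log2 ratios per setting, 36 moved less than counting error, judged by the width of the counting interval, under 6 settings. Without centring 35 did, and ESRRB in the RNA only pair of Post over Pre moved from −0.21 to −0.65, since the median shift is then left in. For DPPA5 this could not come out otherwise, as its lower bound was 0 in all 4 comparisons, which leaves no finite width in log2. Other genes with few counts had wide intervals, such as KLF4 (0.0506 to 57.3) and SUSD2 (0.453 to 20.8) in the Post libraries. These numbers of moved ratios therefore say little about the members below 1 RPM. Between 5 and 8 of the 36 changed sign under the 6 settings and 13 without centring. With a pseudocount of 0.1 RPM, SUSD2 reached −1.04 and DPPA5 −1.19 in the RNA only pair, and DPPA5 −1.67 in the Pre libraries. Both genes lie below the filter of 10 RPM, which was kept with this pseudocount, so they could not be called. TMM sizes moved the median over all genes of Post over Pre without chromatin profiling from −0.44 to −0.05. The additive models tested 4 members and called 0, with 0 at an unadjusted p under 0.05. Of the 21700 genes given to the models, edgeR called 10 and DESeq2 24, all higher in Post. With so small a share, 0 of 4 members says little. The DESeq2 adjusted p of KLF17, TFCP2L1 and DPPA3 was not assigned. No analysis paired by replicate number was possible because the labels give each condition 1 replicate, so no group has a second number to pair. The additive models already set Post against Pre within each profiling condition. Depth limits 5 of the 9 genes, whose mean of under 1 RPM rests on at most 12 counts in a library.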
